A study of Mus musculus with 2 samples.

Results

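The S100 family genes S100a1, S100a13, S100a14, S100a16, S100b and S100g were described by cell class in the lungs of tumour-bearing mice. They are the 6 rows with these symbols among 32286 features, and their working name was that of structural-cell S100 genes, for endothelial, mesenchymal and epithelial cells. The name held for S100a14, S100a16, S100b and S100g. It held only in part for S100a13, and it did not hold for S100a1, whose highest level was in alveolar macrophage-like cells.

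S100 proteins are small proteins with EF-hand loops, which change shape when they bind calcium and then hold on to target proteins. Most work as pairs inside the cell, and some leave it without a signal peptide and are bound by receptors such as Ager. Within the family, S100A1 is known from heart and skeletal muscle, where it acts on ryanodine receptors and the calcium pump of the sarcoplasmic reticulum. S100A13 takes part in the export of Fgf1 and Il1a, which lack a signal peptide. S100A14 is an epithelial member, S100A16 is found in many tissues, S100B is best known from glia, and S100G is a calbindin that buffers calcium in the cytosol of intestinal and renal epithelium.

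The 2 groups were BALB/c mice given an S100A4-11 antibody and BALB/c mice given an IgG antibody. All mice of both groups carried tumours from 4T1 cells, a mouse mammary carcinoma line, placed in the mammary fat pad, and lungs were taken on day 14. None of the 6 genes encodes S100A4, the protein for which the antibody is named. Each group had 1 library, and the sources used here do not state how many animals it pooled. Differences between the libraries therefore had no replicate check, no test was made, and every interval is an exact 95% interval that covers counting error only.

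After filtering, the S100A4-11 library held 11750 cells with a median of 3661 transcripts (unique molecular identifiers, UMIs), and the IgG library 13658 cells with a median of 4028. Before filtering the libraries held 64695542 UMIs (S100A4-11) and 85458143 UMIs (IgG). The cells formed 36 clusters, of which all but 5 took the name of 1 of 23 classes, 12 structural and 11 immune. Levels are UMIs of a gene per 1000000 UMIs of a class and library (CPM) and are compared between classes for 1 gene at a time, not between genes. The libraries shared 266 barcodes, of which 247 passed the filters in both and 27 of those took the same class in both.

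Among S100a1, S100a13, S100a14 and S100a16, which lie side by side on chromosome 3, the first pair is head to head. In GENCODE M21 on GRCm38, S100a1 (ENSMUSG00000044080) spans chr3:90511034-90514392 on the minus strand, and S100a13 (ENSMUSG00000042312) spans chr3:90514435-90524581 on the plus strand, 42 bases away. The RefSeq models of this pair overlap by 98 bases, and whether counting used the strand is not given in the sources used here. S100a14 (ENSMUSG00000042306, chr3:90526856-90528837, plus strand) and S100a16 (ENSMUSG00000074457, chr3:90537254-90543151, plus strand) follow after 2274 and 8416 bases. S100b (ENSMUSG00000033208) lies apart at chr10:76253853-76261159 on the plus strand, and S100g (ENSMUSG00000040808) at chrX:162961992-162964599 on the minus strand.

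RefSeq promoter windows on GRCm38.p6, from 250 bases before to 50 after the annotated start, were found for 5 of the 6 genes. The S100a1 and S100a13 windows are shown because these 2 genes start beside each other and yet led in different cells, as described further on. Their windows, chr3:90514281-90514580 on the minus strand and chr3:90514185-90514484 on the plus strand, have 204 bases in common at chr3:90514281-90514484, printed in capitals. Each is written 5′ to 3′ on its own gene's strand, so the capitals of one are the reverse complement of the other's.
S100a1: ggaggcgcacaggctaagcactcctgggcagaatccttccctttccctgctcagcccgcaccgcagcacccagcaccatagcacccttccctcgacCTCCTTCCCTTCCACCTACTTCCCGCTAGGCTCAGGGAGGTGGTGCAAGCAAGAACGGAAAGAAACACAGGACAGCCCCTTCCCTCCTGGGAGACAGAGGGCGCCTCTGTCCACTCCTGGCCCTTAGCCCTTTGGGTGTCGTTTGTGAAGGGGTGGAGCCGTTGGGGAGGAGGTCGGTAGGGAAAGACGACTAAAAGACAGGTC
S100a13: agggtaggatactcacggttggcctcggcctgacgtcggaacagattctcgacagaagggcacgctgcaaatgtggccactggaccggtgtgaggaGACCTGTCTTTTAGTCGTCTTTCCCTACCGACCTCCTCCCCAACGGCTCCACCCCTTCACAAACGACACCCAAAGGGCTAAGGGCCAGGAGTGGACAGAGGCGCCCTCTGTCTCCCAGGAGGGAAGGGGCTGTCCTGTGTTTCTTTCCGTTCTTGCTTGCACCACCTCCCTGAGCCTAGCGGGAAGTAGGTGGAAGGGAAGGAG
The letters TATAAA, searched on both strands, occurred in neither window and in 13.6% of 32851 promoter windows of this length. GGGCGG occurred in neither as well, against 35.7% of all windows. The same held for CCAAT, against 37.4% of all windows.

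The windows of S100b (chr10:76253586-76253885, plus strand) and S100g (chrX:162964550-162964849, minus strand) are shown because most UMIs of each lay in 1 kind of cell, as described further on. Capitals mark CCAAT or its reverse complement in S100b, which occurred at bases 49 and 231, and TATAAA in S100g, which began at base 251.
S100b: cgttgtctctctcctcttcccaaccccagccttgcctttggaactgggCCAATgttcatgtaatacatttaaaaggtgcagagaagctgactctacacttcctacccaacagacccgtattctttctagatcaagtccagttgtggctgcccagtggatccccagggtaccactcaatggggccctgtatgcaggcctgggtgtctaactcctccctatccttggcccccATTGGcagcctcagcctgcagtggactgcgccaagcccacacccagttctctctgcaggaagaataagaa
S100g: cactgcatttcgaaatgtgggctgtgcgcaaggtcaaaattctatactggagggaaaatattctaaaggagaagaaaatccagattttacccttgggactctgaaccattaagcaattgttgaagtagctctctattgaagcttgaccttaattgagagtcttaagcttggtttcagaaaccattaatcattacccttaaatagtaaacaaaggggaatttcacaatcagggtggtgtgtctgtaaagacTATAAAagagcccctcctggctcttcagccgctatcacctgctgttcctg
A match of letters is a description of these windows and not evidence that a factor binds there.

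Structural classes held 37.2% of kept cells and 36.2% of all their UMIs in the S100A4-11 library, and 44.1% and 43.8% in the IgG library. Against that, they held 99.0% (S100A4-11) and 97.5% (IgG) of S100g UMIs, 94.9% and 91.6% of S100a14 UMIs, 88.2% and 86.4% of S100b UMIs, and 83.8% and 81.7% of S100a16 UMIs, with the S100A4-11 library first in each pair. The shares were lower for the head-to-head pair, at 58.1% (S100A4-11) and 60.2% (IgG) for S100a13, and at 50.6% (S100A4-11) and 52.6% (IgG) for S100a1. Alveolar macrophage-like cells alone held 29.6% of S100a1 UMIs in the S100A4-11 library and 27.4% in the IgG library. Endothelial-like cells held the largest structural part of S100a16, with 73.3% (S100A4-11) and 64.1% (IgG) of its UMIs. Unnamed clusters, not counted as structural, held 13.7% (S100A4-11) and 16.1% (IgG) of S100a16 UMIs. They also held 8.64% and 11.2% of S100a13 UMIs and 8.68% and 10.8% of S100a1 UMIs, in the same order. Pecam1, an endothelial adhesion protein, was found in 83.9% (S100A4-11) and 88.7% (IgG) of their cells. The 6 genes thus fell into separate compartments: epithelial for S100g and S100a14, mesenchymal for S100b, endothelial for S100a16, and mixed for S100a13 and S100a1.

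**Figure D1:**
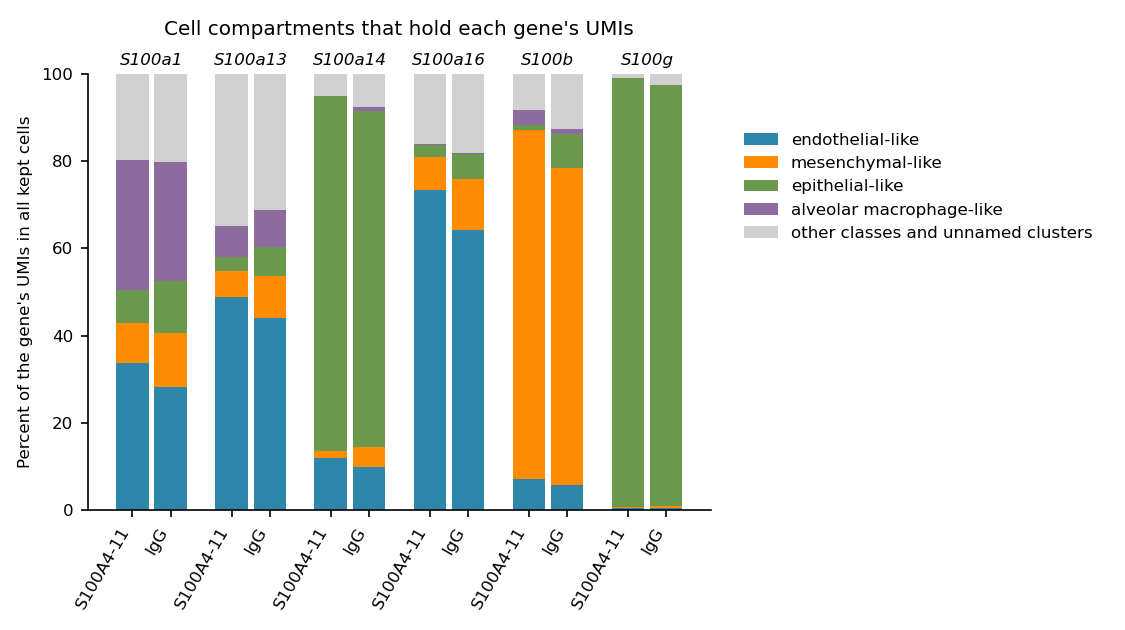
Share of each gene's UMIs (percent of its UMIs in all kept cells, vertical axis) held by endothelial-like, mesenchymal-like and epithelial-like cells, by alveolar macrophage-like cells and by all others, with the S100A4-11 library left of the IgG library for each gene. S100g is almost wholly epithelial-like (98.3% in S100A4-11 and 96.6% in IgG), while alveolar macrophage-like cells take 29.6% (S100A4-11) and 27.4% (IgG) of S100a1.

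S100g, the calbindin, was a transcript of type 2 alveolar epithelial-like cells, the surfactant-producing class. Its level there was 945.6 CPM (902.4 to 990.2) in the S100A4-11 library, from 1804 UMIs in 184 cells, and 684.0 CPM (662.1 to 706.5) in the IgG library, from 3676 UMIs in 409 cells. At least 1 UMI was found in 82.1% of these cells in S100A4-11 and in 73.6% in IgG, at median depths of 9299.5 and 11261 UMIs per cell in the same order. Thinned to 500 UMIs per cell, the shares were 32.1% (S100A4-11) and 25.2% (IgG). Among classes of 40 or more cells in both libraries, none other exceeded 5.08 CPM in S100A4-11 or 4.22 CPM in IgG.

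The traces of S100g elsewhere stood in a proportion to Sftpc, the surfactant protein C transcript, that was not separated from that of type 2 cells. In type 2 alveolar epithelial-like cells there were 5.73 S100g UMIs per 1000 Sftpc UMIs (5.46 to 5.996) in S100A4-11 and 5.43 (5.26 to 5.61) in IgG. All other named classes together had 5.31 (3.44 to 7.84) in S100A4-11, from 25 S100g UMIs, and 6.35 (5.05 to 7.88) in IgG, from 82. In neutrophil-like cells, which should lack the gene, 0.14% (S100A4-11) and 0.58% (IgG) of cells had an S100g UMI and 22.7% (S100A4-11) and 53.0% (IgG) had an Sftpc UMI, at median depths of 3578 and 3781 UMIs. One unnamed cluster, with 3 cells in S100A4-11 and 202 in IgG, held 7 and 33 S100g UMIs in the same order, which was 65.8 CPM in IgG. Another had 0 UMIs in S100A4-11 and 16 in IgG (25.8 CPM). The source of the S100g UMIs outside type 2 cells was not tested.

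Over all kept cells S100g ran the other way from its level within the class, with 31.2 CPM in the S100A4-11 library and 48.4 CPM in the IgG library. Type 2 alveolar epithelial-like cells were 1.57% of the S100A4-11 library and 2.99% of the IgG library. Within the class the S100A4-11 to IgG ratio was 1.38 (1.31 to 1.46), which is under the 1.5-fold set for calling a difference. With TMM scaling, which sets the totals by the bulk of genes, it was 1.51 (1.42 to 1.59) and met the rule for a call. Some other transcripts of the class had like ratios, 1.31 for Sftpc and 1.47 for Lamp3, a lamellar body protein, and some did not. Among the genes most like S100g over the classes, Pla2g1b had 234.3 CPM (S100A4-11) and 176.0 CPM (IgG). Kcne2, another of these, had 41.4 CPM (S100A4-11) and 40.4 CPM (IgG). The median log2 ratio of all genes tested in the class was -0.11. Of the 5 genes with at least 20 UMIs there (all but S100b), 0 were called in either direction, where 13.7% of all genes tested in the class were called.

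Genes of the classical calcium transport route, to which the calbindin belongs, were read in the same cells. Trpv6, the apical calcium channel of intestinal epithelium, had 11 UMIs in type 2 alveolar epithelial-like cells of S100A4-11 and 21 in those of IgG, and Trpv5 and Calb2 had 0 in both. The calcium pump Atp2b1 was measured at 149.9 CPM (S100A4-11) and 174.0 CPM (IgG). The sodium-calcium exchanger Slc8a1 was lower in S100A4-11, with 26.7 CPM against 61.6 CPM in IgG and a ratio of 0.43 (0.32 to 0.58). The pump Atp2b4 was lower too, with 10.5 CPM in S100A4-11 and 23.8 CPM in IgG and a ratio of 0.44 (0.26 to 0.71). In this class 11.4% of all tested genes were called lower.

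S100a14 was detected in alveolar epithelium, on few UMIs. In type 1 alveolar epithelial-like cells, the flat cells of gas exchange, it had 24 UMIs in S100A4-11 (122.0 CPM, 78.1 to 181.5) and 35 UMIs in IgG (73.8 CPM, 51.4 to 102.6). The UMIs came from 9 of 42 cells in S100A4-11 and 20 of 131 cells in IgG, and the 5 cells with most held 83.3% (S100A4-11) and 51.4% (IgG) of them. In type 2 alveolar epithelial-like cells it had 12.1 CPM (S100A4-11) and 11.9 CPM (IgG), from 23 and 64 UMIs. Neutrophil-like cells had 1 UMI in each library. Type 1 alveolar epithelial-like cells stood above all other classes in both libraries, while the ratios of the libraries, 1.65 (0.94 to 2.86) in type 1 and 1.01 in type 2 alveolar epithelial-like cells, were not called. Without the 5 cells of each library with most S100a14 UMIs, the type 1 ratio was 0.659. These were 5 of 42 cells in S100A4-11 and 5 of 131 in IgG, so unlike parts of the class were left out.

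S100a16 was highest in vessels and separated them from immune cells in both libraries. Arterial endothelial-like cells had 408.2 CPM (364.9 to 455.2) in S100A4-11 and 516.2 CPM (477.1 to 557.6) in IgG. General capillary endothelial-like cells had 433.1 CPM (S100A4-11) and 416.7 CPM (IgG), and venous endothelial-like cells 342.1 CPM (S100A4-11) and 403.6 CPM (IgG). These 3 classes were not separated from each other in both libraries, and all lay above aerocyte capillary endothelial-like cells, at 256.3 CPM (S100A4-11) and 272.0 CPM (IgG). Lymphatic endothelial-like cells, with 33 cells in S100A4-11 and 35 in IgG, had 559.3 CPM and 574.1 CPM in the same order.

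Below the vessels came the other structural classes, and the 10 highest classes for S100a16 were all structural. Pericyte-like cells had 181.1 CPM (S100A4-11) and 244.7 CPM (IgG), and smooth muscle-like cells, the lowest of the 10, had 54.2 CPM (S100A4-11) and 66.0 CPM (IgG). The highest immune class with at least 20 UMIs was nonclassical monocyte-like, at 16.6 CPM (S100A4-11) and 24.9 CPM (IgG). A UMI was found in 64.5% (S100A4-11) and 74.7% (IgG) of arterial endothelial-like cells at median depths of 4055 and 4415 UMIs, against 1.98% (S100A4-11) and 2.11% (IgG) of neutrophil-like cells. The arterial ratio was 0.79 (0.69 to 0.91) and was not called. Of 3 genes tested in arterial endothelial-like cells, 0 were called, where 5.74% of all genes were.

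S100a13 was highest in endothelium and was also present across lymphoid and myeloid cells. General capillary endothelial-like cells had 436.1 CPM (421.7 to 451.0) in S100A4-11 and 397.0 CPM (384.5 to 409.9) in IgG. Arterial, aerocyte and venous endothelial-like cells had 369.0, 377.1 and 330.6 CPM in S100A4-11, below the general capillary class. In IgG they had 399.3, 346.7 and 358.7 CPM, and the arterial level was slightly above the general capillary one. None of these 4 classes, ordered by the mean of both libraries, was separated from the next in both. NK cell-like cells had 233.0 CPM (S100A4-11) and 216.0 CPM (IgG), and the class of innate lymphoid or γδ T cells 236.8 CPM (S100A4-11) and 265.1 CPM (IgG), both above alveolar fibroblast-like cells at 123.0 CPM (S100A4-11) and 107.3 CPM (IgG). T cell-like cells had a UMI in 40.5% (S100A4-11) and 35.3% (IgG) of cells, against 12.8% (S100A4-11) and 13.7% (IgG) of neutrophil-like cells, at median depths that differed little (3960.5 and 3941 UMIs in T cell-like cells).

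In the general capillary class S100a13 differed more between clusters than between libraries. Its main cluster had 466.4 CPM (S100A4-11) and 461.5 CPM (IgG), and a second cluster had 184.1 CPM (S100A4-11) and 155.7 CPM (IgG). The second cluster made up 17.4% of the class in S100A4-11 and 27.4% in IgG. Its cells had more of the nuclear transcript Malat1, with 1.54% of UMIs in S100A4-11 and 1.52% in IgG, against 0.54% (S100A4-11) and 0.52% (IgG) in the main cluster. The ratio was 1.10 (1.05 to 1.15) over the class and 1.01 (0.96 to 1.06) in the main cluster; the part of Malat1 in the difference between clusters was not tested. Of 3 genes tested in the class 0 were called, where 6.88% of all genes were.

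S100a1 went against the working name in its highest class of 40 or more cells in both libraries. Alveolar macrophage-like cells, the resident phagocytes of the air spaces, had 468.8 CPM (448.5 to 489.9) in S100A4-11 and 420.3 CPM (404.6 to 436.4) in IgG. In both libraries this was above each of the other 20 classes of 40 or more cells. A UMI was found in 84.7% (S100A4-11) and 83.8% (IgG) of the cells, at median depths of 8155 and 8341.5 UMIs, and in 19.9% (S100A4-11) and 18.04% (IgG) when cells were thinned to 500 UMIs. Sftpc stood at 31.1 CPM (S100A4-11) and 107.7 CPM (IgG) in these cells, below its level in neutrophil-like cells at 75.03 CPM (S100A4-11) and 221.7 CPM (IgG). Epcam, an epithelial adhesion protein, had 51.1 CPM (S100A4-11) and 64.1 CPM (IgG) there, against 154.1 CPM (S100A4-11) and 146.1 CPM (IgG) in type 2 alveolar epithelial-like cells.

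Ordered by the mean of both libraries, the next 9 classes for S100a1 were structural. Arterial endothelial-like cells had 209.8 CPM (S100A4-11) and 194.5 CPM (IgG), alveolar fibroblast-like cells 200.7 CPM (S100A4-11) and 174.4 CPM (IgG), and type 2 alveolar epithelial-like cells 177.7 CPM (S100A4-11) and 175.1 CPM (IgG). These were not separated from each other in both libraries. Interstitial macrophage-like cells, the other macrophage class, had 73.9 CPM (S100A4-11) and 97.4 CPM (IgG), beside 73.2 CPM (S100A4-11) and 121.6 CPM (IgG) in pericyte-like cells, the lowest of the 9 in S100A4-11, and classical monocyte-like cells 65.8 CPM (S100A4-11) and 65.5 CPM (IgG). Neutrophil-like cells had 6.73 CPM (S100A4-11) and 5.52 CPM (IgG). Ciliated airway epithelial-like cells, with 20 cells in S100A4-11 and 35 in IgG, had 631.3 CPM (527.1 to 750.1) and 345.4 CPM (297.8 to 398.4) in the same order.

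The alveolar macrophage ratio of S100a1 was 1.12 (1.05 to 1.18), and of 3 genes tested in the class 0 were called, where 4.96% of all genes were. Of the muscle calcium genes with which S100A1 is known to work, Atp2a2, the calcium pump, had 77.0 CPM (S100A4-11) and 72.1 CPM (IgG) in these cells, and Ryr1 had 12.5 CPM (S100A4-11) and 14.4 CPM (IgG). Ryr2, the cardiac ryanodine receptor, had 0 UMIs in S100A4-11 and 3 in IgG. Pln, Casq1, Casq2 and Trdn, which belong to the sarcoplasmic reticulum of muscle, had 0 in both libraries.

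**Figure D2:**
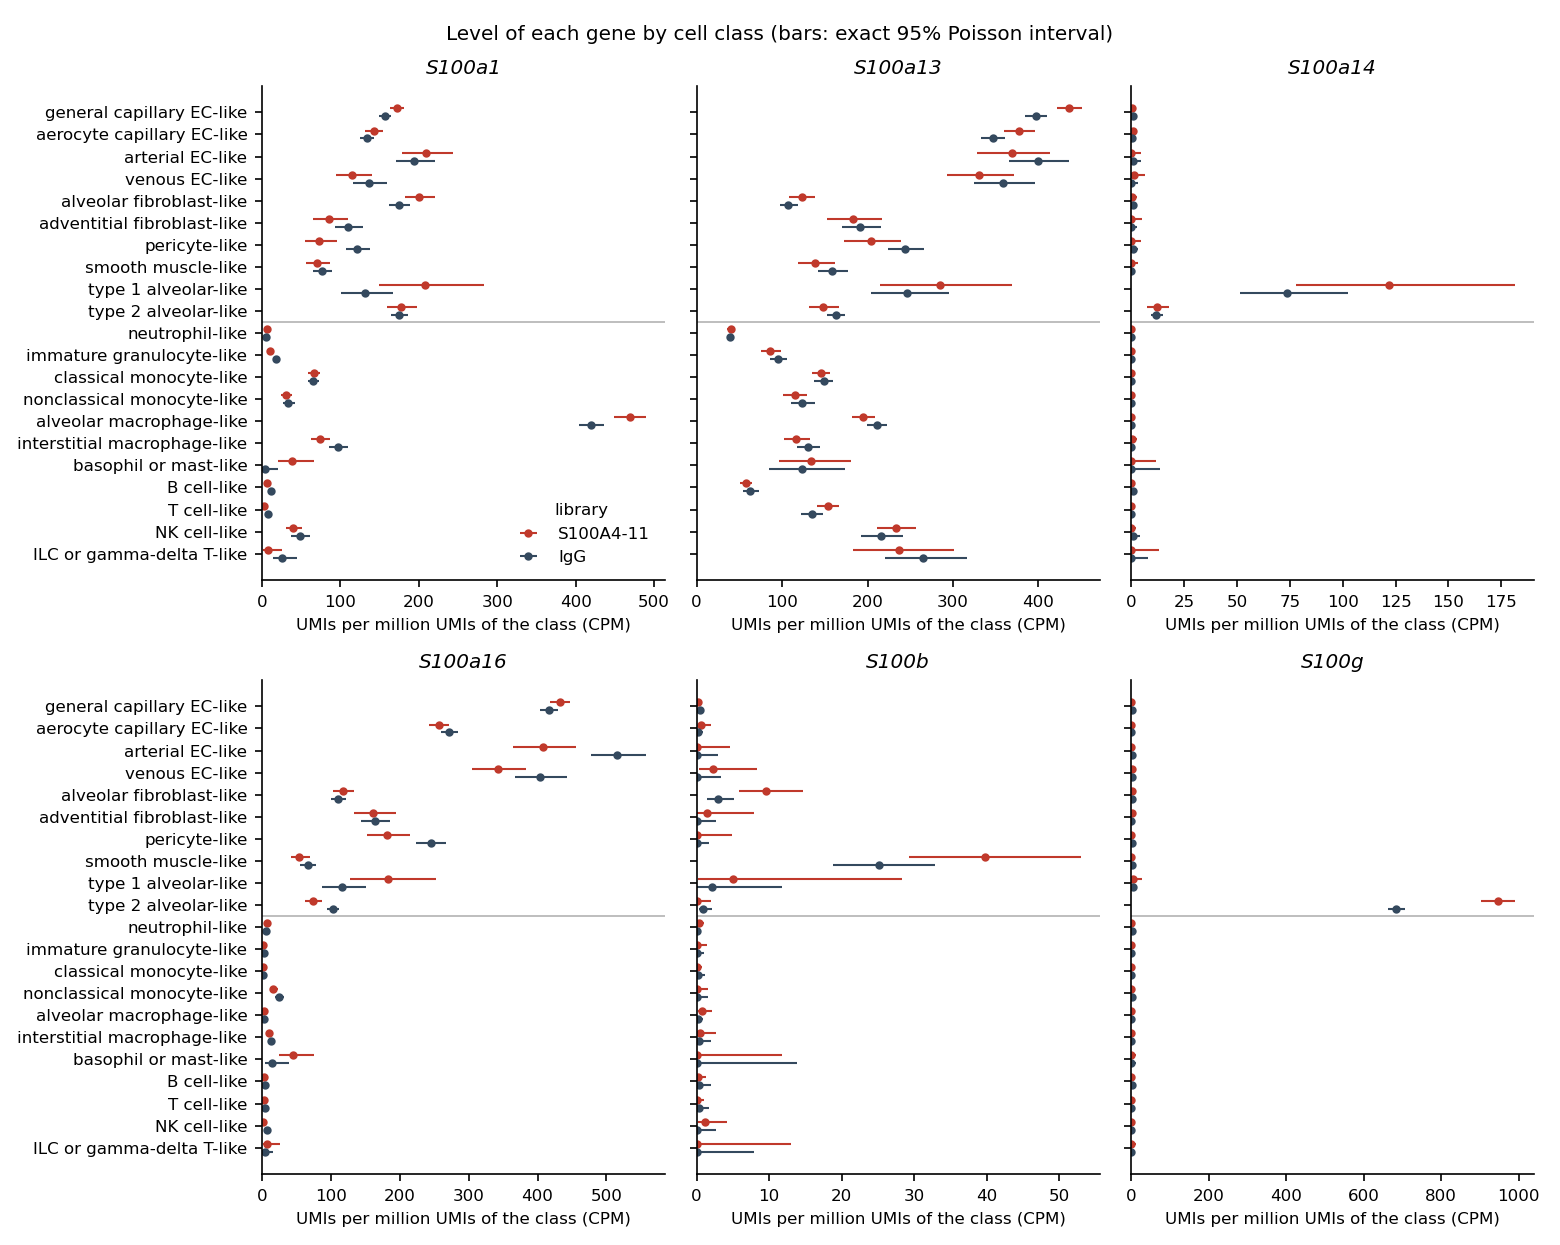
Level of each gene (CPM, horizontal axes, a separate scale for each gene) in the 21 classes of 40 or more cells in both libraries, structural classes above the grey line and immune classes below it, S100A4-11 above IgG, with exact 95% Poisson intervals. S100a1 peaks below the line in alveolar macrophage-like cells, S100a16 stays above it, and S100g and S100a14 stand clear of 0 in alveolar epithelium only.

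S100b was rare and sat mostly in 1 kind of mesenchymal cell. Smooth muscle-like cells had 47 UMIs (39.8 CPM, 29.3 to 53.0) in S100A4-11 and 53 UMIs (25.2 CPM, 18.9 to 32.9) in IgG, out of 85 and 88 UMIs in all kept cells. The class was made of 2 clusters. One, led by Hhip, a membrane protein that binds hedgehog ligands, held 47 S100b UMIs in 188 cells in S100A4-11 and 52 UMIs in 232 cells in IgG. The other, led by Cnn1, a calponin of contractile smooth muscle, held 0 UMIs in 142 cells in S100A4-11, which with a limit of 3 counts allows a share of cells with an S100b UMI of up to 2.11%, and 1 UMI in 240 cells in IgG. Within the Hhip-led cluster, 17.02% (S100A4-11) and 16.4% (IgG) of cells had an S100b UMI, and no S100b UMI was found in pericyte-like cells of either library.

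The name smooth muscle-like for the S100b-bearing cluster came from fixed markers, among them Hhip and Aspn, and a finer name was not tested. The S100b-bearing cluster had less of the contractile apparatus than the Cnn1-led one. Acta2, smooth muscle actin, had 950.6 CPM (S100A4-11) and 1682 CPM (IgG) there, against 8475 CPM (S100A4-11) and 10260 CPM (IgG) in the Cnn1-led cluster, and was found in 54.8% (S100A4-11) and 63.4% (IgG) of Hhip-led cells. Tagln, an actin-binding protein of smooth muscle, had 1999 CPM (S100A4-11) and 2868 CPM (IgG) in the Hhip-led cluster, against 8043 CPM (S100A4-11) and 9685 CPM (IgG). Myh11, smooth muscle myosin, had 158.2 CPM (S100A4-11) and 281.4 CPM (IgG), against 2603 CPM (S100A4-11) and 2786 CPM (IgG). Cyp2e1, a cytochrome P450, went the other way, with 789.1 CPM (S100A4-11) and 888.6 CPM (IgG) in the Hhip-led cluster, against 1.73 CPM (S100A4-11) and 14.1 CPM (IgG). Lum did as well, with 596.0 CPM (S100A4-11) and 726.3 CPM (IgG) against 0 in both libraries. Aspn had 1422 CPM (S100A4-11) and 1738 CPM (IgG), against 327.8 CPM (S100A4-11) and 386.3 CPM (IgG). Notch3 was lower in the Hhip-led cluster, with 1.66 CPM (S100A4-11) and 6.01 CPM (IgG), against 762.6 CPM (S100A4-11) and 577.8 CPM (IgG). These are genes that could define the clusters, so they describe the cells and are no result between them; S100 genes were left out of the clustering.

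A second, smaller source of S100b was cells with glial transcripts. Cells with at least 3 of 10 Schwann and glial genes, such as Sox10 and Cdh19, numbered 10 in S100A4-11 and 15 in IgG, and they held 20 of 85 and 17 of 88 S100b UMIs in the same order. All 20 S100b UMIs of alveolar fibroblast-like cells in S100A4-11, and 10 of the 11 in IgG, were in such cells, which lay in 1 shallow cluster of that class with medians of 938.5 UMIs (S100A4-11) and 951 UMIs (IgG). The remaining cells, outside the Hhip-led cluster and without 3 glial genes, had an S100b UMI in 0.139% (S100A4-11) and 0.142% (IgG).

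**Figure D3:**
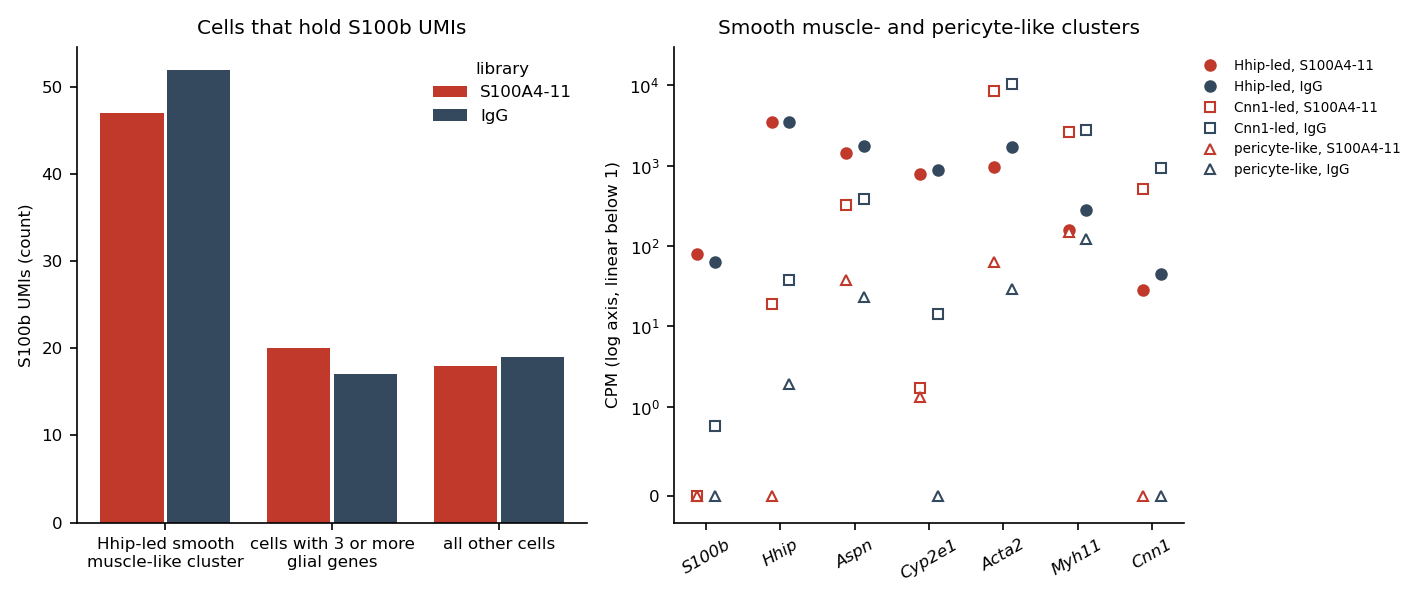
Left, S100b UMIs (count) in the Hhip-led smooth muscle-like cluster, in cells with 3 or more glial genes and in all other cells, S100A4-11 left of IgG. Right, S100b and 6 other genes (CPM, log axis that is linear below 1) in the Hhip-led, Cnn1-led and pericyte-like clusters; S100b is near 78.2 CPM (S100A4-11) and 62.5 CPM (IgG) in the Hhip-led cluster and at or near 0 in the others.

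Between the libraries, 61 pairs of gene and class had at least 20 UMIs, of which 4 were called higher and 3 lower in S100A4-11, by 1.5-fold or more with an interval that excluded 1. Of all genes with as many UMIs, 4.26% were called in classical monocyte-like cells, the class with the smallest share of the 21, and 18.0% in type 1 alveolar epithelial-like cells, the class with the largest. In type 1 alveolar epithelial-like cells S100a1 was higher, with 41 UMIs (208.3 CPM) in S100A4-11 and 62 UMIs (130.7 CPM) in IgG and a ratio of 1.59 (1.05 to 2.40). S100a16 was higher there as well, with 36 UMIs (182.9 CPM) in S100A4-11 and 55 UMIs (116.0 CPM) in IgG and a ratio of 1.58 (1.01 to 2.45). These were 2 of 4 genes tested in a class where 6.89% of all genes were called higher and 11.1% lower.

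The 42 type 1 alveolar epithelial-like cells of S100A4-11 and the 131 of IgG differed in other transcripts too. Malat1 took 1.88% of UMIs in S100A4-11 and 3.21% in IgG. Epcam had a ratio of 2.52 and Krt8, a keratin of simple epithelia, one of 2.41, while Hopx, a marker of type 1 cells, had 1.004. Sftpc had 3445 CPM in S100A4-11, in 38.1% of cells, and 347.9 CPM in IgG, in 57.3% of cells. The part of these differences in the S100 ratios was not tested. Without the 5 cells of each library with most UMIs of the gene, the ratio was 1.44 (0.76 to 2.60) for S100a1 and 1.16 (0.58 to 2.20) for S100a16. As 5 cells are a larger part of 42 than of 131, that setting takes more cells in proportion from S100A4-11. At resolution 2 neither was called, with a ratio of 1.31 for S100a1 and one just under the 1.5-fold limit for S100a16.

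In pericyte-like cells S100a1 was lower, with 55 UMIs (73.2 CPM) in S100A4-11 and 254 UMIs (121.6 CPM) in IgG and a ratio of 0.60 (0.44 to 0.81). It was 1 of 3 genes tested in a class where 2.94% of all genes were called lower. At resolution 0.5 the ratio was 0.758, and with S100 genes in the clustering 0.696, and it was then not called. S100a1 sat in deep cells of that class: cells with both S100a1 and S100a13 had median depths of 16953 UMIs (S100A4-11) and 15015 UMIs (IgG), against 1740 UMIs (S100A4-11) and 1785 UMIs (IgG) in cells with neither. Pecam1, an endothelial adhesion protein, was found in 29.9% (S100A4-11) and 40.2% (IgG) of pericyte-like cells, at 869.3 CPM and 1014 CPM in the same order. The part of endothelial transcripts in these S100 levels was not tested.

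The other 2 lower ratios of S100a1 were in immune classes and rested on few UMIs. T cell-like cells had 11 UMIs (2.96 CPM) in S100A4-11 and 27 UMIs (8.04 CPM) in IgG, a ratio of 0.37 (0.16 to 0.77), and 1 of 3 genes tested was called where 3.93% of all genes were lower. Immature granulocyte-like cells had 25 UMIs (9.92 CPM) in S100A4-11 and 66 UMIs (17.3 CPM) in IgG, a ratio of 0.58 (0.35 to 0.92), and 1 of 2 genes tested was called where 2.24% of all genes were lower. The share of T cell-like cells with an S100a1 UMI, 1.29% (S100A4-11) and 3.02% (IgG), was below that of neutrophil-like cells in S100A4-11 and above it in IgG, where neutrophil-like cells had 2.26% (S100A4-11) and 2.07% (IgG). Thinned to 500 UMIs, immature granulocyte-like cells had an S100a1 UMI in 0.349% (S100A4-11) and 0.684% (IgG) of cells, against 0.314% (S100A4-11) and 0.311% (IgG) of neutrophil-like cells. With doublets kept, the ratio was 0.465 in T cell-like cells, with an interval of 0.174 to 1.14, and 0.753 in immature granulocyte-like cells, and neither was called. The part of free RNA in these ratios was not tested.

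S100b supplied the remaining 2 higher calls. In smooth muscle-like cells its ratio was 1.58 (1.05 to 2.39), 1 of 4 genes tested in a class where 2.62% of all genes were called higher. Within the Hhip-led cluster, which was 57.0% of the class in S100A4-11 and 49.2% in IgG, the ratio was 1.25 (0.83 to 1.89) and was not called. With each library clustered alone the smooth muscle ratio was 3.20, and at resolution 0.5 it was 1.30 and not called. In alveolar fibroblast-like cells the ratio was 3.26 (1.49 to 7.54), from 20 UMIs in 7 cells of S100A4-11 and 11 UMIs in 4 cells of IgG. That was 1 of 4 genes tested in a class where 2.08% of all genes were called higher and 7.11% lower, and it rested on the cells with glial transcripts. With each library clustered alone that ratio was 1.24 and not called, and with at least 500 genes per cell it was 0, as no S100b UMI of S100A4-11 was left in the class. S100a13 was called in 0 of 21 classes, with ratios of 0.83 to 1.15, where 4.26% to 18.0% of all genes were called in a class. How many genes with as many UMIs were called in no class was not counted. When the 5 cells of each library with most UMIs of the gene were left out, 0 pairs were called higher and 7 lower, out of 60. The same 5 cells per class and library were left out whatever the class size, so the library with fewer cells lost a larger part. The share of all genes called under that setting was not counted.

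**Figure D4:**
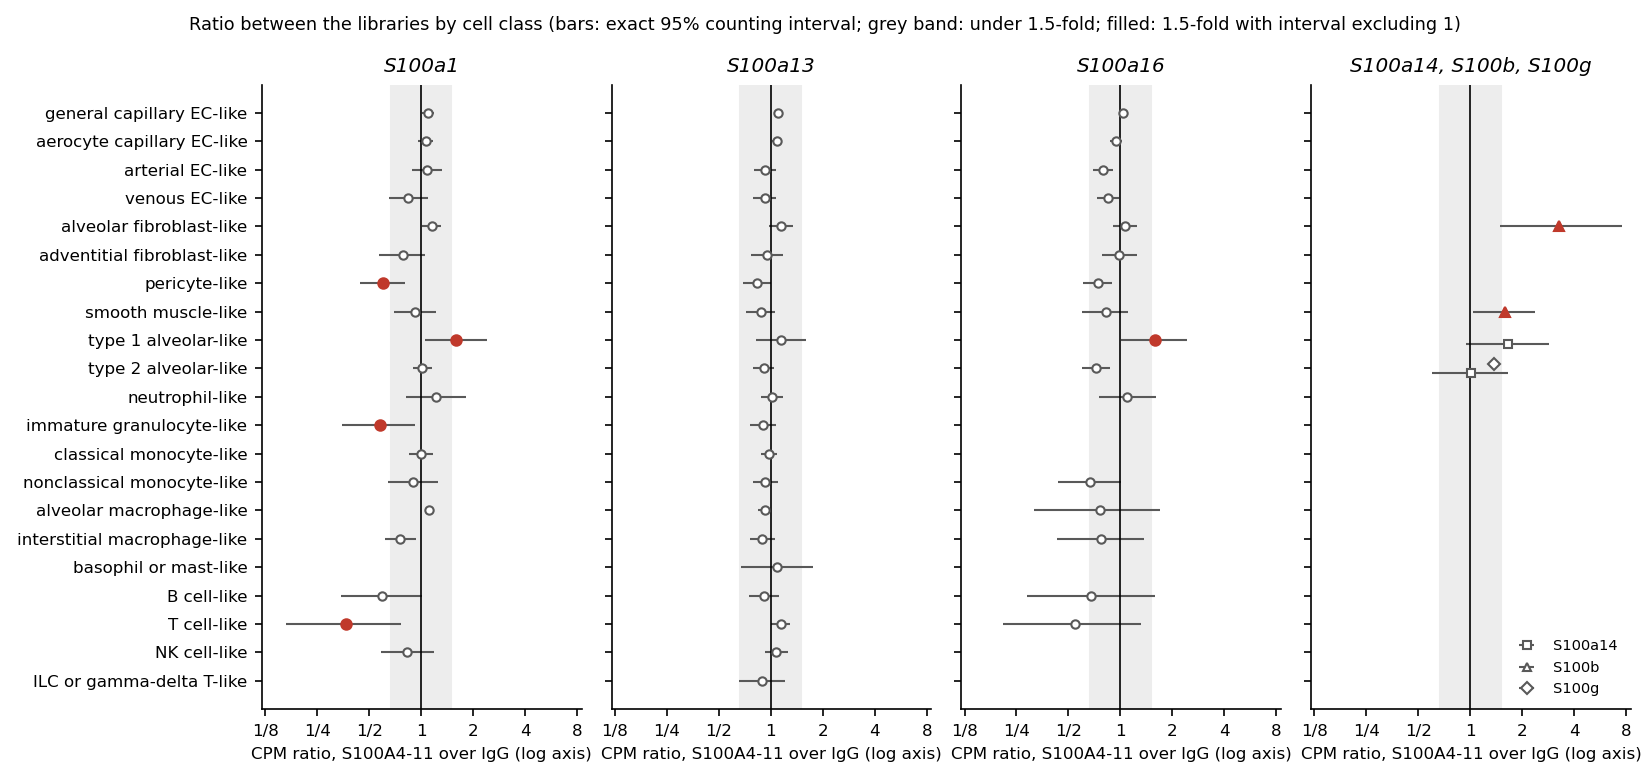
Ratio of CPM, S100A4-11 over IgG (horizontal log axes), for each gene and class with at least 20 UMIs, with exact 95% counting intervals, a grey band for differences under 1.5-fold and filled red marks for the 7 called pairs. S100a13 stays inside the band in all 21 classes, and the widest intervals belong to the rarest signals.

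The head-to-head pair was set against each other directly, as S100a1 UMIs per S100a13 UMI in the same cells. Alveolar macrophage-like cells had 2.41 (2.22 to 2.61) in S100A4-11 and 1.99 (1.87 to 2.13) in IgG. Alveolar fibroblast-like cells had 1.63 in both libraries, and type 2 alveolar epithelial-like cells 1.20 (S100A4-11) and 1.08 (IgG). General capillary endothelial-like cells had 0.39 in both, NK cell-like cells 0.17 (S100A4-11) and 0.22 (IgG), and T cell-like cells 0.019 (S100A4-11) and 0.060 (IgG). These genes share 204 bases of promoter window and differed in their balance between classes far beyond counting error, and the order of these 6 classes was the same in both libraries. Ciliated airway epithelial-like cells, not among these 6, had 2.69 (1.92 to 3.83) in S100A4-11 and 2.61 (1.98 to 3.48) in IgG. They numbered 20 and 35 in the same order.

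**Figure D5:**
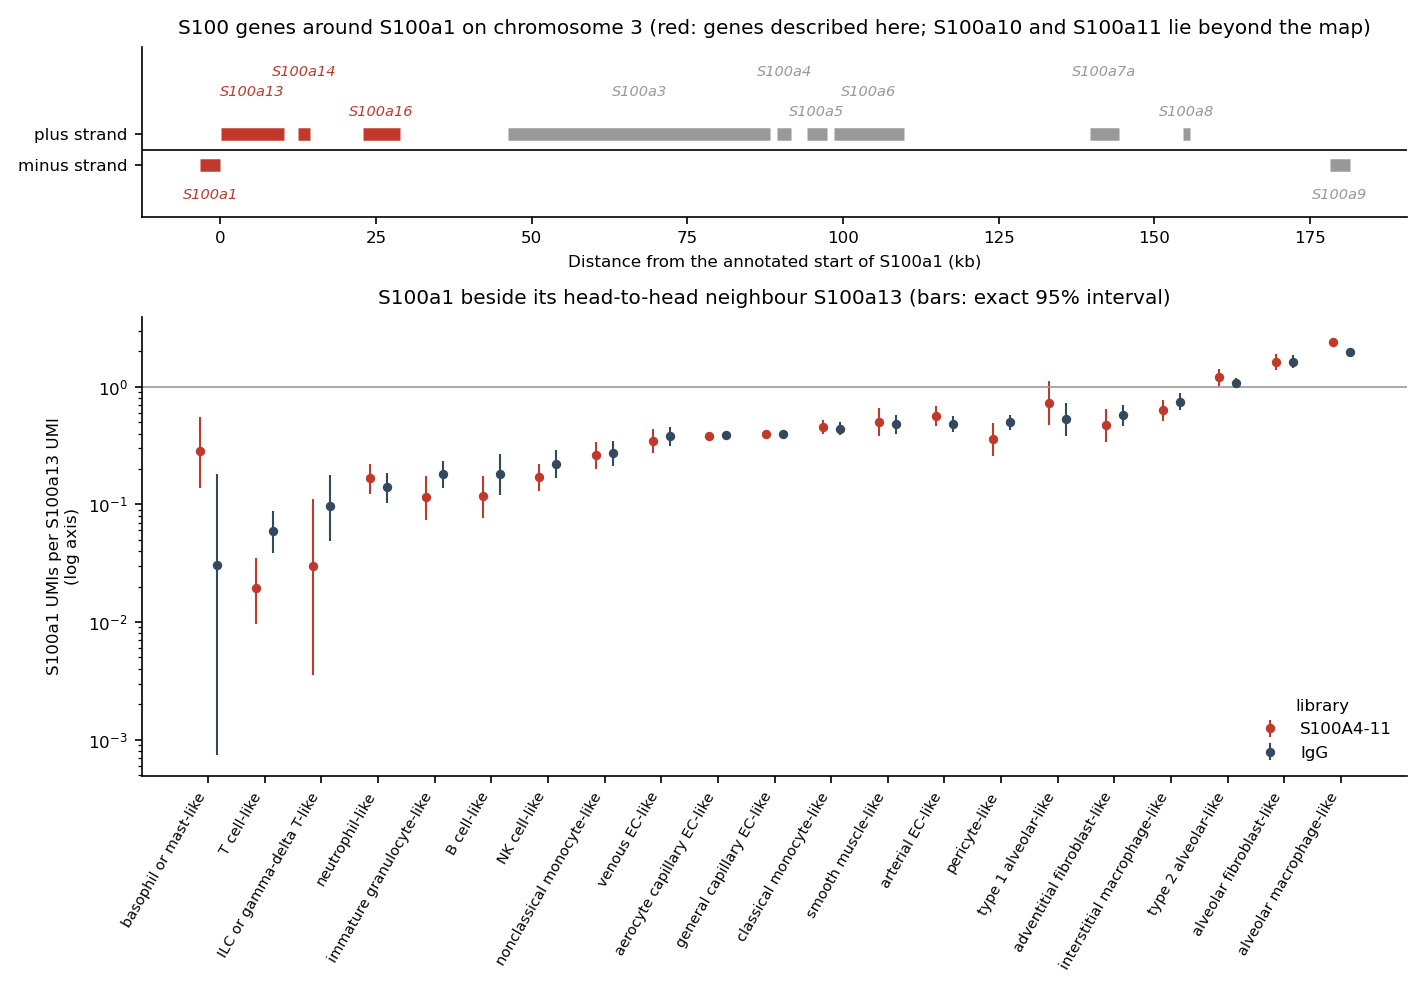
Top, S100 genes on chromosome 3 by strand against distance from the annotated start of S100a1 (kb), with the genes described here in red. Bottom, S100a1 UMIs per S100a13 UMI (log axis) by class, S100A4-11 left of IgG, with exact 95% intervals. The ratio lies above 1 in alveolar macrophage-like, alveolar fibroblast-like and type 2 alveolar epithelial-like cells and below 1 in the other classes plotted. The interval includes 1 for type 2 cells in IgG (0.98 to 1.18) and for type 1 cells in S100A4-11 (0.48 to 1.12).

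In general capillary endothelial-like cells S100a13 and S100a16 were often found in the same cells. Of cells with an S100a16 UMI, 83.0% (S100A4-11) and 79.8% (IgG) had one of S100a13, against 34.2% (S100A4-11) and 28.3% (IgG) of cells without. Cells with both were deeper, with medians of 4793 UMIs (S100A4-11) and 4947 UMIs (IgG), than cells with neither, at 1275.5 UMIs (S100A4-11) and 1600.5 UMIs (IgG); the part of depth was not tested. In smooth muscle-like cells S100b and S100a16 were found together in 1 cell of S100A4-11 and 2 cells of IgG. S100b without S100a16 was found in 31 and 37 cells, and S100a16 without S100b in 40 and 76, in the same order. The Hhip-led cluster, which held nearly all S100b of the class, had only 11 S100a16 UMIs in 188 cells (S100A4-11) and 17 in 232 cells (IgG). The part of that cluster make-up in the small overlap was not tested.

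Across the 21 classes and both libraries (42 points of log2(CPM + 5), which share 2 libraries), the transcripts most like each gene were ranked by Pearson's r, given as a description. S100a16 was closest to Arhgap29, a GTPase-activating protein (r = 0.98), and to Cavin1 and Cavin2, which coat caveolae, among 6411 genes considered. S100a1 was closest to Tmbim1 (r = 0.89), Lima1, which binds actin, and Tpp1, a lysosomal peptidase, and S100a13 to Gnb1, a G protein subunit (r = 0.87). S100a14 was closest to Mab21l4 (r = 0.99) and near to Itgb6, Cgn and Scnn1b of epithelial junctions and membranes. S100b was closest to Gm48529 (r = 0.93), Ecrg4 and Agt, angiotensinogen, and S100g to Pla2g1b, a phospholipase (r = 0.99). For S100g the value rests on a single class. That of S100a14 rests on type 1 and type 2 alveolar epithelial-like cells, with means of at most 0.77 CPM elsewhere. That of S100b rests mostly on smooth muscle-like cells, with means of at most 6.23 CPM elsewhere. Between the genes themselves r was 0.62 for S100a1 with S100a13, 0.61 for S100a1 with S100a16, 0.64 for S100a13 with S100a16 and 0.43 for S100a14 with S100g.

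Beside these 6 genes, most measured genes of the family list were highest in an immune class. Of the 21 classes compared, 10 were structural, and the share of all genes highest in a structural class was not counted. Of 11 listed genes (10 other S100 genes and S100pbp), 7 had at least 50 UMIs in a class, and 1 of them was highest in a structural class: S100a10, at 1118 CPM (S100A4-11) and 1168 CPM (IgG) in adventitial fibroblast-like cells. S100a8, S100a9, S100a6 and S100a11 were highest in immature granulocyte-like cells. S100a4, whose product the antibody is named for, had its highest level in the innate lymphoid or γδ T cell class, at 1216 CPM (S100A4-11) and 1162 CPM (IgG). In their own highest classes 0 of the 7 were called in either direction, where the share of all genes called was 4.26% to 18.0% over the 21 classes.

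Partner genes were read in the class where each was highest. Here too the share of all genes highest in a structural class was not counted. Of 7 receptors reported for extracellular S100 proteins, 6 were highest in a structural class, and Ager, at 10889 CPM (S100A4-11) and 6412 CPM (IgG), and Bsg, at 1047 CPM (S100A4-11) and 527.1 CPM (IgG), were called higher in type 1 alveolar epithelial-like cells, where 6.89% of all genes were. Of 6 genes tied to export without a signal peptide, Syt1 was called higher in smooth muscle-like cells, where 2.62% of all genes were, at 16.9 CPM (S100A4-11) and 8.07 CPM (IgG). Fgf1, which S100A13 binds, was not called, at 320.1 CPM (S100A4-11) and 358.4 CPM (IgG) in type 1 alveolar epithelial-like cells. Of 6 measured muscle calcium genes, Ryr2, at 35.6 CPM (S100A4-11) and 65.5 CPM (IgG), and Jph2, at 39.0 CPM (S100A4-11) and 63.6 CPM (IgG), were called lower in smooth muscle-like cells, where 4.61% of all genes were. Of 4 measured calcium transport genes 0 were called in their highest classes, against the same 4.26% to 18.0% of all genes. Of 4 measured glial genes, 1 was called higher and 1 lower, both in alveolar fibroblast-like cells, where 2.08% of all genes were called higher and 7.11% lower. The higher one was Cdh19, at 17.2 CPM (S100A4-11) and 9.56 CPM (IgG), a ratio of 1.80 (1.10 to 2.93). It had 36 UMIs in each library there, in 10 cells of S100A4-11 and 8 cells of IgG. Over all classes, the cells with at least 3 glial genes held 35 of 45 Cdh19 UMIs (S100A4-11) and 61 of 70 (IgG).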

How the data were processed

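Lung cells of 2 groups, S100A4-11 and IgG, were measured in 1 library each with 10x Genomics 5' chemistry. Per the file headers, the deposited matrices hold whole UMI counts for each gene and barcode; per the submitters' processing notes the authors used Cell Ranger 7.1.0 and build mm10. The protocol text speaks of tumour tissue, while titles and tissue labels say lung, and the libraries held lung classes.

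Barcodes with under 200 genes or over 15% mitochondrial UMIs were removed, then doublets by Scrublet in Scanpy 1.11.5, 615 (4.97%) in S100A4-11 and 627 (4.39%) in IgG. Counts were log-normalised and clustered together without integration on 2000 variable genes that excluded all S100 genes (30 principal components, 15 neighbours, Leiden resolution 1). Clusters were named, with "-like", from at least 3 markers in 25% of cells at 2-fold the mean elsewhere. No correction for free RNA was made, so shares are given beside those of classes that should lack a gene.

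UMIs were summed per class and library. Levels have exact Poisson, shares exact binomial and ratios exact conditional binomial 95% intervals; a difference was called at 1.5-fold with an interval excluding 1 and at least 20 UMIs. The highest class of a gene needed at least 40 cells in each library. Genes most like a member needed at least 50 UMIs in its highest class, as did listed genes in 1 class; the 5 with the highest r were ranked, and examples are given. With 1 library per group no test, p-value or standard error is given. The ratio and interval code was tested on simulated data. TMM scaling used edgeR 4.0.16. Alternatives changed the cell filter, doublets, resolution, clustering genes, joint clustering, scaling, weights and the cells with most UMIs of a gene. The genes, lists and partner sets were chosen with earlier results of these data known. Some genes of the glial list are not reported here.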

Additional observations from a re-analysis of the deposited data

Results flagged for a closer look

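S100a1 had ratios of S100A4-11 over IgG that pointed opposite ways in different classes, each past 1.5-fold with an interval excluding 1. The ratio was 1.59 in type 1 alveolar epithelial-like cells, against 0.602 in pericyte-like, 0.575 in immature granulocyte-like and 0.368 in T cell-like cells. Whether these ratios differ from each other was not tested, because each group had 1 library. Thinned to 500 UMIs, the share of cells with an S100a1 UMI was 11.6% (S100A4-11) and 8.11% (IgG) in type 1 alveolar epithelial-like cells, 1.84% and 2.96% in pericyte-like cells, 0.349% and 0.684% in immature granulocyte-like cells and 0.0976% and 0.436% in T cell-like cells, against 0.314% and 0.311% in neutrophil-like cells, with the S100A4-11 library first in each pair.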

How the results depend on the processing

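Each group had 1 library, so the alternatives show how values move with the processing and not how they would vary between animals. Depth limits S100b and S100a14, which had 85 and 59 UMIs in S100A4-11 and 88 and 131 in IgG. No paired analysis was possible because each group had 1 library. Leaving out clusters rich in Malat1, or barcodes found in both libraries, was chosen after seeing the data. The arterial endothelial-like and type 1 alveolar epithelial-like classes each gave no value in 4 alternatives, where no class of that name had 40 cells in each library. The ratio of S100a1 in alveolar macrophage-like cells was 1.11 to 1.14 over 13 alternatives, and S100a1, S100b and S100g kept their highest class in every alternative run. S100a14 was highest in type 2 alveolar epithelial-like cells in 4 alternatives, the same 4 in which the type 1 class gave no value. S100a16 was highest in general capillary or venous endothelial-like cells in 5. These were the 4 without a value for the arterial class and the one without clusters rich in Malat1. S100a13 moved to arterial endothelial-like cells at resolution 2. The S100g ratio, 1.38 in type 2 alveolar epithelial-like cells, was 1.23 with every barcode kept, 1.29 with doublets kept, 1.18 with each library clustered alone, 1.51 with TMM scaling (then called) and 1.26 without the 5 cells with most S100g. The S100a13 ratio in general capillary endothelial-like cells was 1.04 with each library clustered alone and 1.01 without clusters rich in Malat1. The S100a16 ratio in arterial endothelial-like cells was 0.959 at resolution 2, and the S100b ratio in smooth muscle-like cells 3.20 with each library clustered alone. The S100a14 ratio in type 1 alveolar epithelial-like cells, 1.65, was 0.796 with every cell weighing the same and 0.659 without the 5 cells with most S100a14. Leaving out 5 cells per library takes a larger part of a class from the library with fewer of its cells. The S100b ratio in alveolar fibroblast-like cells, 3.26, was 0 with at least 500 genes per cell, which leaves no S100b UMI of S100A4-11 in the class. With every barcode kept, structural classes held 43.3% (S100A4-11) and 45.5% (IgG) of S100a1, 53.2% and 55.2% of S100a13, and 75.3% and 74.9% of S100a16; with doublets kept, 48.1% and 49.7%, 54.6% and 56.5%, and 77.6% and 76.9% in the same order. Thinned to 1000 UMIs, a UMI was found in 33.4% (S100A4-11) and 31.3% (IgG) for S100a1, 33.5% and 28.9% for S100a13, 31.1% and 38.6% for S100a16, and 48.7% and 39.5% for S100g, in the highest class of each. With at least 100 UMIs per gene, 2.65% of genes were called in alveolar macrophage-like and 33.5% in type 1 alveolar epithelial-like cells. Apart from the missing classes named here, the cause of these shifts was not tested.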
